A study of Caenorhabditis elegans with 2 samples.

Results

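In peaks of eGFP-tagged CEH-28 from whole Caenorhabditis elegans larvae, 207 of 3531 summits lay in exons of protein-coding genes and outside every promoter window. A summit is the highest point of a peak. Promoter windows reached 1000 bp upstream and 200 bp downstream from the annotated 5' ends of protein-coding genes. Within this list, which the authors thresholded on agreement between replicates, members were chosen by the position of the summit and not by its signal. They comprised 128 summits in 3' UTRs, 64 in coding exons, 13 in 5' UTRs and 2 in exons of transcripts with no coding part. They lay in 194 genes, of which 124 had a 3' UTR summit and 60 a coding exon summit, with 4 that had both. For 5 members in exons of 2 genes, both genes were counted.

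Chromatin immunoprecipitation and sequencing was done on the CEH-28 fusion protein in whole L3 larvae of strain OP241, genotype unc-119(ed3) III; wgIs241. The wgIs241 insertion carries the tagged ceh-28 gene, and both samples share the unc-119 mutation. There was 1 group with 2 biological replicates of whole worms of mixed sex, and no second genotype or stage. The comparisons were therefore made between classes of sequence, with the thresholded list that the authors made from both replicates. Peaks are not independent replicates, and the p-values speak for the peaks found in these 2 samples. Signal was pooled over all cells of the larvae, and the peak lists hold no expression values against which stage or tissue could be checked.

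CEH-28 belongs to the NK-2 homeodomain proteins and is best known for its role in M4, a motor neuron of the pharynx. Transcription factors are usually looked for at promoters, upstream regions and introns. Exons carry a further constraint, since coding exons must keep their codons, whereas a 3' UTR, the stretch of the mRNA after the stop codon, is free of codons and can hold regulatory sequence. Worm genes lie close together, so that the 3' end of a gene can be near the next gene.

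The sequences below show the motif nearest the summit at the strongest members that held it, since of the motifs counted it was the most frequent at exonic summits. The motif AATCGAT or AATCAAT is in capitals, and each line is on ce11, 5' to 3', on the strand on which the match reads in that form. The first 3 are 3' UTR summits, at chrIII:2960955-2960983, chrIV:983728-983756 and chrIV:2236168-2236196, each on the minus strand. The line for plx-1 holds a further AATCAAT in lower case.
H05C05.1: aaatcgaaaaaAATCGATaattcaccaga
plx-1: gccgccaaaaaAATCAATaaatcaataaa
fnip-2: atttcacaaaaAATCGATaatcattgata

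The next 3 lines are the motif matches nearest to coding exon summits, at chrIII:2423808-2423836 on the plus strand, chrIII:3429893-3429921 on the plus strand and chrIII:1607857-1607885 on the minus strand. The match itself lay in coding sequence for Y22D7AL.9 and in the intron beside the exon for W04B5.3 and K01A11.1. The summits of W04B5.3 and Y22D7AL.9 were outside the printed bases, 25 bp from the centre of the match. A run of A stood before the motif in these lines, as in the 3' UTR lines.
W04B5.3: aatcgaaaaaaAATCAATaatttttcagc
K01A11.1: gatttctaaaaAATCGATactcacctctg
Y22D7AL.9: ggaacggaaaaAATCGATaaaatcgagaa

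Further lines show other cases. The line for daf-2 is a 3' UTR match at chrIII:2995430-2995458 on the minus strand, and it was chosen after its values were seen, for the well-known gene. The line for pde-3, at chrII:14952664-14952692 on the plus strand, is the strongest exonic summit with CTGCGTC, in capitals. The line for pks-1, at chrX:5429579-5429608 on the plus strand, has GCGCAGGG in capitals, 51 bp from the strongest coding exon summit. It was also chosen after its values were seen.
daf-2: ttttttctgaaAATCGATaattcgatgaa
pde-3: cctctggccgtCTGCGTCtctatctctct
pks-1: cattaaatttaGCGCAGGGaggacgccgtt

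The other peaks of the list had summits in promoter windows (1864), introns (761) and intergenic sequence (699). Signal, the value the authors deposited for each peak, ran from 65.9 to 5643, with a median of 109.5. The lists hold no read counts, and depth is therefore unknown. The summits were exonic as labelled, but the peaks were longer than many exons, with a median length of 400 bp. Many intervals were exactly 400 bp long with the summit at the middle, so their length need not measure the extent of binding. For 3' UTR summits a median of 79.1% of the interval lay in 3' UTR sequence, and 101 of 128 intervals were 3' UTR over most of their length. For coding exon summits a median of 59.8% was coding, in 38 of 64 intervals most of the length was, and 4 intervals were coding throughout. A further 255 exonic summits lay inside promoter windows and were not members.

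Summits were far denser in 3' UTRs than in coding exons. Exons held 5.86% of all summits (95% Wilson interval 5.13% to 6.69%) while exon sequence outside promoter windows made up 21.7% of the assembly. Per Mb of sequence outside promoter windows there were 54.6 summits in 3' UTRs (95% Poisson interval 45.5 to 64.9) and 3.36 in coding exons (2.59 to 4.29). The 3' UTRs came to 2.35 Mb and the coding exons to 19.0 Mb. The ratio of the densities was 16.2 (95% interval 11.9 to 22.3; exact binomial test, two-sided, p = 6.34e-75, adjusted over 11 tests p = 6.97e-74). The intervals cover counting error of summits only. Set beside other classes without a test, 5' UTRs had 46.3 summits per Mb, introns 28.04, intergenic sequence 27.8 and promoter windows 70.9. Coding exons were thus the sparsest of the classes, while the value for 3' UTRs lay between those of introns and promoter windows.

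The strongest exonic peak was in a 3' UTR, and mean log2 signal was higher in 3' UTRs than in coding exons. Signal at 3' UTR summits ran from 66.2 to 2040 with a median of 104.6, and at coding exon summits from 66.0 to 819.3 with a median of 92.3. The ranges overlapped, and the difference lay in the upper part, since the upper quartile was 239.4 in 3' UTRs and 111.6 in coding exons. Mean log2 signal was 7.14 in 3' UTRs and 6.64 in coding exons, a difference of 0.50 (permutation test, two-sided, p = 0.00047, adjusted p = 0.00129). The upper 100 of all 3531 summits held 3 of the 128 in 3' UTRs, 1 of the 64 in coding exons and 1 of the 2 in other exons. Beside these it held 46 of 761 intronic, 25 of 699 intergenic and 24 of 1864 promoter window summits. All exonic summits together had a mean log2 signal of 6.99, against 7.19 for intronic and intergenic summits, a difference of -0.19 (permutation p = 0.0136, adjusted p = 0.0300). Against intronic summits alone, whose median signal was 132.0, the difference was -0.36 (permutation test, adjusted p = 0.00022). Against intergenic summits alone it was -0.01 (permutation test, adjusted p = 0.868). Both alternatives were added after the data were seen.

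**Figure D1:**
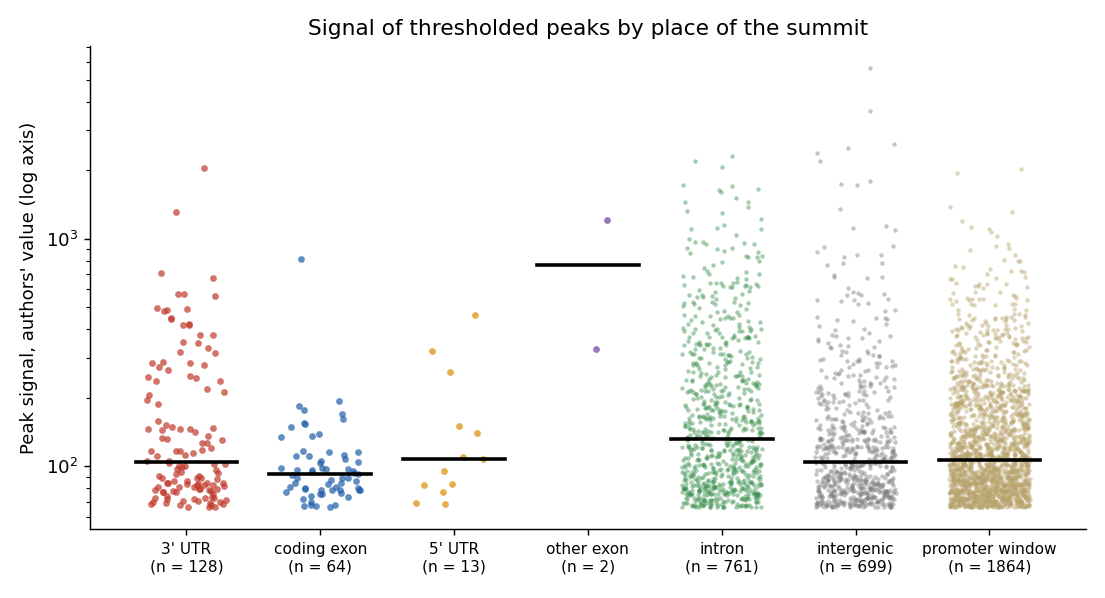
Signal of each thresholded peak (vertical, log axis) by the place of its summit, 1 point per summit, with black lines at the medians. Points in 3' UTRs reach 2040, while all coding exon points but 1 stay at or below 194.1.

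The genes with the strongest 3' UTR peaks had varied functions. H05C05.1, on chromosome III, encodes a protein with an RNA recognition motif per RefSeq. Its main summit, in the peak at chrIII:2960919-2961062, had a signal of 2040 in the thresholded list, and 1407 in replicate 1 and 656.4 in replicate 2. A second summit in the same 3' UTR had a signal of 673.0, with 519.6 in replicate 1 and 201.3 in replicate 2. There were 19 copies of AATCGAT or AATCAAT within 200 bp of the main summit and 12 around the second. This was the highest signal of any exonic summit, and it ranked 10 in the whole list.

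The next was plx-1, which encodes a plexin, a receptor for semaphorin guidance cues. The peak at chrIV:983474-984045 had a signal of 1313, with 764.6 in replicate 1 and 554.0 in replicate 2, and 10 copies. Its summit lay 46 bp after the start of the 3' UTR. A separate summit in a coding exon of plx-1 had a signal of 86.1, below the median of the list. The fnip-2 gene encodes a relative of the folliculin-interacting proteins. Its summit had a signal of 709.8, with 487.0 in replicate 1 and 229.5 in replicate 2, and 10 copies. In all 3 genes replicate 1 had the higher signal value, but signal was set within each list, and no comparison between replicates was made from it.

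Of the other genes among the 10 strongest 3' UTR summits, eri-5 encodes a tudor domain protein of the endogenous RNAi pathway and had a signal of 570.9. H14E04.2 had summits of 569.9 and 264.6, and RefSeq describes its product as a winged helix protein. The polyglutamine gene pqn-41 had 559.7, the amino acid transporter gene aat-9 495.9 and the chemoreceptor gene sre-46 491.7. For mdf-2, the worm Mad2 gene of the spindle checkpoint, signal was 486.3. Replicate 1 and replicate 2 placed each of the 10 strongest summits among their 300 strongest peaks. These 10 were picked by signal in the list made from both replicates, so high ranks in each are not independent of that choice. The copies within 200 bp ranged from 2 at mdf-2 to 19 at H05C05.1. The sre-46 summit lay in a 3' UTR of 20 bp, 5 bp from the end of the transcript. A gene for tRNA, snoRNA, snRNA, miRNA or rRNA lay within 500 bp of the sre-46 summit and of the mdf-2 summit. The next protein-coding 5' end was 1361 bp downstream of the mdf-2 summit.

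Further 3' UTR summits in well-known genes are named here after their values were seen. The summit in the 3' UTR of daf-2, the insulin receptor gene that sets dauer entry and lifespan, had a signal of 480.8, with 312.8 in replicate 1 and 171.4 in replicate 2, and 9 copies. Signal was 450.6 at dapk-1, a death-associated protein kinase gene, and 422.4 at mod-5, the serotonin transporter gene. At dys-1, the dystrophin gene, it was 288.1.

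The strongest coding exon summits were weaker than the strongest 3' UTR summits, with 1 exception. The strongest was in pks-1, a polyketide synthase gene on X, at chrX:5429264-5429856, with a signal of 819.3, and 428.9 in replicate 1 and 390.9 in replicate 2. It had 1 copy of AATCGAT or AATCAAT within 200 bp and none within 50 bp. A second summit in the same interval had a signal of 88.5. The next coding exon summit reached 194.1, in W04B5.3, a galectin gene per RefSeq, with 111.8 in replicate 1 and 79.8 in replicate 2. K01A11.1, which encodes a Spaetzle domain protein per RefSeq, followed with 184.6, and with 77.1 in replicate 1 and 104.4 in replicate 2. These summits lay 12 bp and 5 bp from sequence outside coding exons.

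The remaining coding exon summits of the upper 10 had signals from 138.4 to 176.2. They were in ckr-2, a cholecystokinin-like receptor gene (176.2), Y22D7AL.9 (170.2), the Delta/OSM-11-like gene dos-3 (161.0), the ligand-gated channel gene lgc-46 (155.3), Y55F3BL.4 (153.3), rgs-4, a regulator of G protein signalling (149.5), and the doublecortin gene C06C3.3 (138.4). Copies within 200 bp ran from 0 at dos-3 to 8 at lgc-46. The rgs-4 summit had a signal of 97.6 in replicate 1 and was the only member with no overlapping peak in replicate 2.

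The 13 summits in 5' UTRs had signals from 68.0 to 461.3 with a median of 107.5. The highest was in egl-30, the Gq alpha subunit gene, with 461.3, and 221.0 in replicate 1 and 242.2 in replicate 2. This summit lay only 23 bp outside a promoter window. It had no copy of AATCGAT or AATCAAT within 200 bp. C34C12.2, which has a fibronectin III domain per RefSeq, followed with 320.1 and also had no copy. Signal was 258.6 at rsbp-1, a gene for an RGS-binding protein, 150.1 at F56D2.5, an RBR ubiquitin ligase gene, and 139.9 at nhr-131, a nuclear hormone receptor gene. The motif lay within 50 bp of 4 of the 13 summits. Both summits in other exons were in Y48E1C.1, described as a centromere protein S relative, with signals of 1208 and 327.0 and 12 and 6 copies.

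There were 15 genes with several exonic summits. The rho-1 gene, the RhoA GTPase, had 3 in its 3' UTR, with signals of 249.9, 89.2 and 71.4. The phosphodiesterase gene pde-3 also had 3, with 217.9, 158.5 and 73.6. Y39A3B.1 had 3 in coding exons, from 92.0 to 96.7. A 3' UTR summit and a coding exon summit occurred together in plx-1, rgs-4, sdpn-1 and kpc-1. Apart from those in the rule for named genes, these were named after their values were seen. Summits of 1 gene share sequence, and 6 members shared an interval with another.

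Both replicates found the classes about equally often. A peak counted as found in both where it overlapped, by at least 1 bp, one of the 3531 strongest peaks of each replicate. That held for 90 of 128 3' UTR summits (70.3%) and 44 of 64 coding exon summits (68.8%), beside 73.7% of all thresholded peaks. This gave an odds ratio of 1.08 (95% interval 0.528 to 2.16; adjusted p = 0.868 by Fisher's exact test, which was two-sided here and below). For all exonic summits the share was 145 of 207 (70.0%), against 1088 of 1460 (74.5%) for intronic and intergenic summits, an odds ratio of 0.800 (0.576 to 1.12; exact adjusted p = 0.242). These intervals include 1, and they also include differences of moderate size in either direction.

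Spearman's rho between signal in replicate 1 and in replicate 2, given as a description, was 0.70 across 128 3' UTR summits and 0.35 across the 63 coding exon summits with a peak in both lists. Members came from a list thresholded on agreement between replicates, so some correlation was set by that choice. The lists share the genome and its base composition, and the coding exon summits spanned a narrower range of signal. The median rank of 3' UTR summits was 1722 in replicate 1 and 1922 in replicate 2. That of coding exon summits was 2358 in replicate 1 and 2494 in replicate 2.

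**Figure D2:**
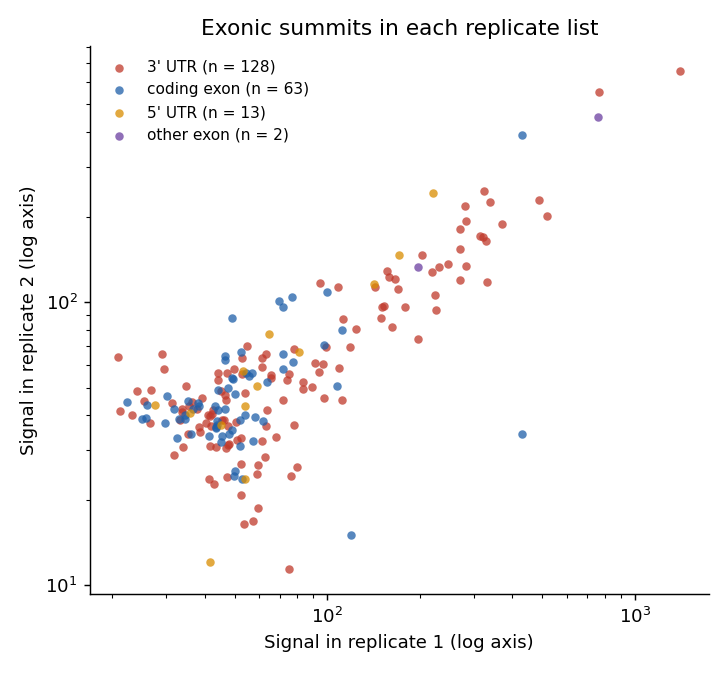
Signal of each exonic summit in replicate 1 (horizontal) and replicate 2 (vertical), both log axes, coloured by class, with 1 point per summit that has a peak in both lists. The 3' UTR points run up to 1407 and 656.4, and most coding exon points lie in the lower left.

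The motif AATCGAT or AATCAAT was found at most exonic summits and at few places beside them. Windows reached 50 bp to each side of the summit, matches on either strand counted, and matches that overlapped, also on opposite strands, were counted separately. Of 207 exonic summits 153 had the motif (73.9%), against 67 of 414 windows of the same size centred 500 bp to each side (16.2%). The odds ratio was 14.6 (9.59 to 22.5; exact adjusted p = 4.64e-45). Windows were pooled for this test, and a summit was not paired with its own flanks. The motif was picked in earlier work on the summits of this same list, so this excess is not independent evidence for it. Of all thresholded summits 47.4% had it. Among all windows of 101 bp in the genome 6.35% had it, with 8.94% of those centred in 3' UTRs and 6.81% of those centred in coding exons outside promoter windows.

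In 3' UTRs 104 of 128 summits had the motif (81.2%), and in coding exons 43 of 64 (67.2%). The odds ratio was 2.11 (1.00 to 4.43; exact p = 0.0459), and the adjusted p was 0.0841, so the difference did not pass the threshold of 0.05. With the strongest peaks of a single replicate the odds ratio was 1.12 for replicate 2 and 0.962, in the other direction, for replicate 1. For AATCAAT alone the shares were 77 of 128 (60.2%) and 24 of 64 (37.5%), with an odds ratio of 2.50 (exact adjusted p = 0.00794), an alternative added after the data were seen. For AATCGAT alone 61.7% of 3' UTR summits and 56.2% of coding exon summits had it. Exonic summits had the motif more often than intronic and intergenic summits together, of which 813 of 1460 had it (55.7%), with an odds ratio of 2.25 (1.61 to 3.19; exact adjusted p = 1.48e-06). The difference was one from intergenic summits. Introns, at 73.1%, gave an odds ratio of 1.04 (exact adjusted p = 0.868), and intergenic summits, at 36.8%, one of 4.86, both added after the data were seen.

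Copies were gathered at the summit itself. Within 25 bp of the summit there were 25 copies per kb in 3' UTR peaks, against 2.17 per kb at 500 to 1000 bp. In coding exon peaks there were 17.8 per kb, against 1.66 per kb at that distance. Intronic peaks had 22.9 per kb, against 4.07, and intergenic peaks 7.90 per kb, against 1.14. In the 153 members with a copy within 50 bp, the nearest copy had its centre a median of 10 bp from the summit, and in 128 of them it was within 25 bp.

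**Figure D3:**
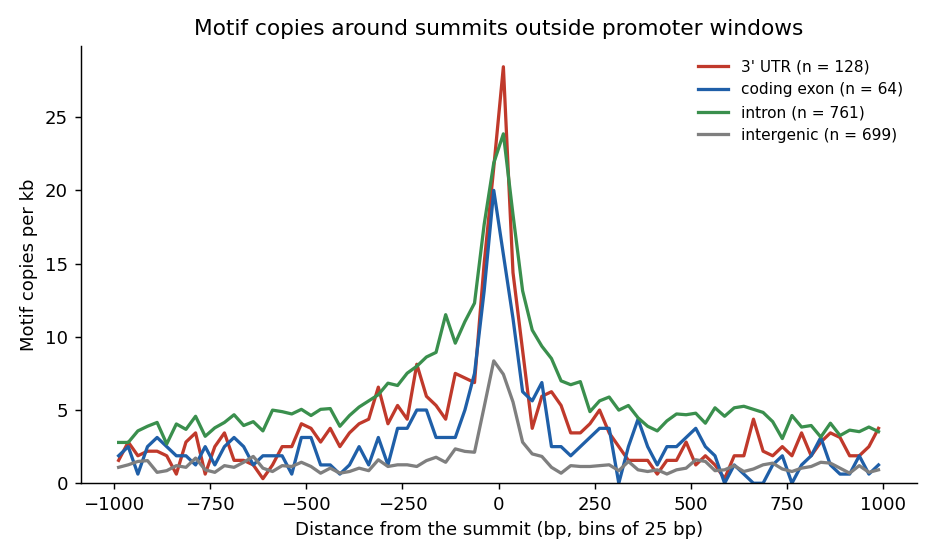
Motif copies (AATCGAT or AATCAAT on either strand) per kb by distance from the summit, in bins of 25 bp, for 4 classes of summits outside promoter windows. All 4 lines peak at the summit. The 3' UTR line reaches the highest value, the intron line is above it in neighbouring bins, and the intergenic line is lowest.

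The highest signals in 3' UTRs went with 4 or more copies of the motif. With 0, 1, and 2 to 3 copies within 200 bp, 3' UTR summits had median signals of 84.0, 74.9 and 91.0 (n = 20, 12 and 47), and with 4 or more the median was 243.8 (n = 49). Coding exon summits had medians of 94.9, 72.7 and 83.9 (n = 12, 8 and 22), and 97.8 with 4 or more (n = 22). The step at 4 copies was also seen in introns, with a median of 222.7, and in intergenic sequence, with 212.4. Spearman's rho of copies with signal was 0.65 across 128 3' UTR summits and 0.31 across 64 coding exon summits, as a description.

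The difference in signal between 3' UTRs and coding exons was also taken within classes of copy number. Among summits with 4 or more copies, mean log2 signal was 1.16 higher in 3' UTRs than in coding exons (permutation p = 3e-05, adjusted p = 8.25e-05, n = 49 and 22). Among summits with 3 or fewer, the difference was 0.07 (permutation p = 0.559, adjusted p = 0.684, n = 79 and 42). These alternatives were added after the data were seen, and whether these 2 differences differ from each other was not tested.

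Among stretches with many copies of the motif, those centred in 3' UTRs held a summit more often than those centred in coding exons. The genome outside promoter windows was cut into stretches of 401 bp, which were classed by their centre. Of 62 stretches centred in 3' UTRs with 4 or more copies, 39 held a thresholded summit (62.9%, 95% Wilson interval 50.5% to 73.8%), and 33 a summit in a 3' UTR (53.2%, 41.0% to 65.1%). Of 4152 with no copy, 25 held a summit (0.602%). Of 166 stretches centred in coding exons with 4 or more copies, 52 held a summit (31.3%, 24.8% to 38.7%), but 12 held one in a coding exon (7.23%, 4.18% to 12.2%). Of 35655 with no copy, 17 held a summit (0.0477%). Introns with 4 or more copies held a summit in 296 of 609 stretches (48.6%), and intergenic sequence in 48 of 220 (21.8%). This division was made after the data were seen and is given without a test. A stretch can reach past the exon or UTR at its centre, whose size bears on the share with a summit of the same class.

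**Figure D4:**
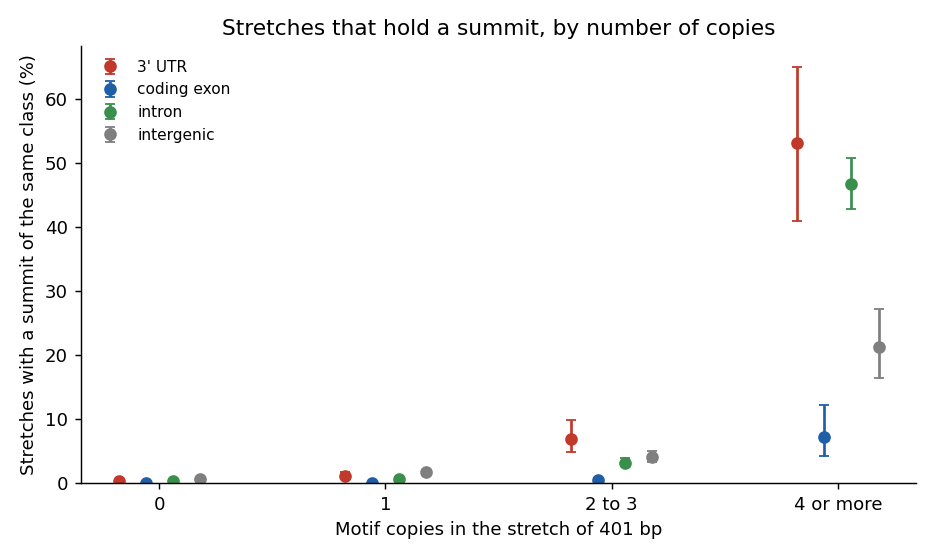
Share of stretches of 401 bp that hold a summit of the same class as the stretch's centre (vertical, %), by the number of motif copies in the stretch, with 95% Wilson intervals. The share in 3' UTR stretches reaches 53.2% with 4 or more copies, and that in coding exon stretches 7.23%. Stretches can reach past the exon or UTR at their centre.

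Most copies lay in the same class of sequence as the summit, although around coding exon summits many were in introns. Of 476 copies within 200 bp of 3' UTR summits, 428 lay in 3' UTR sequence (89.9%). Of 180 copies around coding exon summits, 106 lay in coding exons (58.9%) and 59 in introns (32.8%). The copy nearest the summit was in 3' UTR sequence for 102 of 104 3' UTR summits (98.1%), and in a coding exon for 32 of 43 coding exon summits (74.4%). These shares are given without a test, since the class of the summit and the size of its exon or UTR bear on them. The copies read AATCGAT or AATCAAT on the strand of the gene in 33.8% around 3' UTR summits and in 57.8% around coding exon summits.

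Neighbouring copies were often about 20 bp apart. Of 304 pairs of neighbouring copies around 3' UTR summits, 65 started 18 to 22 bp apart (21.4%), with 20 bp the most frequent distance. The share was 26.0% around coding exon summits and 41.8% around intronic summits. Read as ATCGATT or ATTGATT, the copies were followed by T. In the 3 bases after 445 copies in 3' UTR peaks, T stood at 84.9%, 80.4% and 76.4%, and after 178 copies in coding exon peaks at 78.1%, 74.2% and 66.8%. These are the runs of A seen before the motif in the lines above. Overlapping and repeated copies share their surroundings, so they are not separate observations.

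A minority of members lacked the motif. The 24 3' UTR summits without a copy within 50 bp had signals from 70.1 to 145.9 with a median of 82.8, against a median of 119.2 for the 104 with one. In coding exons the medians were 88.5 for the 21 without and 94.3 for the 43 with a copy. Of the 54 exonic summits without the motif 11 lay on X, and of the 153 with it 4 did. Of all 3531 thresholded summits, 550 lay on X. These are descriptions with no test.

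The other sequences counted were rare at exonic summits. CTGCGTC lay within 50 bp of 5 of 207 exonic summits (2.42%) and in 5 of 414 flanking windows (1.21%), while 8.55% of all thresholded summits had it. The 5 were pde-3, C05D11.8, ptr-12 and sup-26 in 3' UTRs and F56D2.5 in a 5' UTR, with signals of 217.9, 145.9, 127.0, 116.9 and 150.1. Windows of 101 bp had it in 0.767% over the genome. GCGCAGGG lay within 50 bp of 0 of 207 exonic summits and of 16 of all 3531, and within 200 bp of 2. In the genome 0.0285% of windows had it. The sequence bound by NK-2 proteins, TCAAGTG or TTAAGTG, lay at 6 of 207 exonic summits (2.90%) and in 8 of 414 flanking windows (1.93%), against 2.20% of windows over the genome. Over all thresholded summits it was at 46 of 3531 (1.30%) and in 1.88% of flanking windows, so the list as a whole had no excess of it. Of the 6 exonic summits with it, 5 were in 3' UTRs. Each was counted on both strands.

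Exonic summits were mostly on chromosome arms, as intronic summits were, although introns had more of their sequence there. The outer 25% at the ends of autosomes held 149 of 192 exonic summits (77.6%), beside 544 of 687 intronic (79.2%), 258 of 511 intergenic (50.5%) and 719 of 1591 promoter window summits (45.2%), given without a test. Of the stretches of 401 bp centred in 3' UTRs, 1930 lay in the arms and 2602 in the autosomal centres. For coding exons these counts were 16560 and 23468, for introns 32726 and 23581, and for intergenic sequence 25910 and 22428. Of the 119 autosomal 3' UTR summits 98 lay in the outer 25% at either end of the chromosome (82.4%), and of the 58 autosomal coding exon summits 43 did (74.1%). The odds ratio was 1.62 (0.706 to 3.67; exact adjusted p = 0.286), and with the strongest peaks of replicate 1 alone it was 0.908. Chromosome III had the most, with 37 3' UTR and 21 coding exon summits, of which 21 and 15 lay in its left 25%. Chromosome X had 9 in 3' UTRs and 6 in coding exons. Exonic summits were 60 of all 695 summits on III, 44 of 725 on I and 31 of 484 on II. They were 39 of 573 on IV, 18 of 504 on V and 15 of 550 on X. In the arms 92 of 98 3' UTR summits had the motif and the median signal was 129.0. In the autosomal centres 9 of 21 had it and the median was 82.5. For coding exons the values were 38 of 43 and 92.6 in the arms, and 4 of 15 and 79.2 in the centres. Of 3' UTR stretches with 4 or more copies, 39 of 57 in the arms and 0 of 4 in the centres held a summit.

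The 3' UTRs that held summits were long. The transcript of the summit had a 3' UTR of 457 bp at the median, from 20 to 5363 bp. The longest 3' UTR of each host gene had a median of 430 bp, against 131 bp over the 16794 protein-coding genes with one. Those genes were not limited to 3' UTRs outside promoter windows, where members had to lie. A longer 3' UTR has more room for a summit, and the density above is per base for that reason. The median genomic distance from summit to transcript 3' end was 141 bp. Coding exon summits lay a median of 43 bp from the nearest base outside coding exons, against 62 bp for all coding bases outside promoter windows. Within 50 bp of such a base were 51.6% of the summits and 42.6% of the coding bases. Of the 64 summits, 3 were over 200 bp away.

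Base composition is given without a test. Median GC content in the 101 bp around the summit was 28.7% in 3' UTRs and 37.6% in coding exons, beside 27.7% in introns and 41.6% in intergenic sequence. The reference marks repeats and low-complexity sequence in lower case. Such bases made up most of the window at 78 of 128 3' UTR summits (60.9%) and 19 of 64 coding exon summits (29.7%), beside 64.4% in introns and 19.6% in intergenic sequence. The part of base composition and repeats in the difference in signal was not tested.

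Genes for tRNA, snoRNA, snRNA, miRNA or rRNA lay within 500 bp of 7 exonic summits (3.38%), against 92 of 1460 intronic and intergenic summits (6.30%) and 4.81% of all thresholded summits. The odds ratio was 0.521 (0.201 to 1.14; exact adjusted p = 0.181). A 5' end of a protein-coding gene lay 1000 to 2000 bp downstream of 16 of 128 3' UTR summits (12.5%) and 6 of 64 coding exon summits (9.38%). Here the odds ratio was 1.38 (0.480 to 4.54; exact adjusted p = 0.698). Nearer ends are removed by the choice of members, and the next downstream 5' end was a median of 6722 bp away for 3' UTR summits and 5793 bp for coding exon summits.

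Host genes were counted in 12 gene families. Over 19973 protein-coding genes 0.971% held an exonic summit, a share at which the smaller families would hold few or none. Of 1293 chemoreceptor genes 3 did, sre-46, srx-12 and srx-41, and of 240 C-type lectin genes 1 did, clec-8. Nuclear hormone receptor genes had 3 of 269, nhr-131, nhr-14 and nhr-146. Neuropeptide genes had 1 of 140, nlp-53, and ligand-gated and potassium channel genes 2 of 135, lgc-37 and lgc-46. There were 0 of 81 ribosomal protein genes, 0 of 72 histone genes, 0 of 156 col collagen genes and 0 of 322 F-box genes. The same held for 188 UGT, cytochrome P450 and GST genes, 59 heat shock and chaperone genes and 33 proteasome genes. The lists were drawn by gene name and were trimmed after some host genes had been seen, so the counts are a description with no test.

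The edge of the promoter window decided some members. Just outside it, by 8 bp, was the 5' UTR summit of nhr-131, with a signal of 139.9. The 5' UTR summit of acs-16, an acyl-CoA synthetase gene, was 12 bp outside, with 76.8. Just inside, by 6 bp, was a coding exon summit of eri-1, an exonuclease gene of RNAi, with 78.0. The 5' UTR summit of zip-11, a bZIP factor gene, was 16 bp inside, with 196.0.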

How the data were processed

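Members and lists were chosen with earlier results of these data known. The authors deposited a relaxed peak list per replicate and a list from both replicates thresholded on irreproducible discovery rate (per the deposited records). Signal and −log10 q-value per peak are deposited values of the authors. The −log10 q-value was at its highest in 175 of 207 members, so signal served to rank. The sources used here do not give aligner or peak caller, and the control was not analysed here. Library fragments were 150 to 350 bp per the labels.

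Classes used ce11 sequence and Ensembl release 115, in the order coding exon (with stop codon), 5' UTR, 3' UTR, other exon. RefSeq gave product names. A replicate partner was the overlapping peak with the nearest summit. Named genes were hosts of the 10 highest summits in 3' UTRs and in coding exons, the 5 highest in 5' UTRs, all in other exons, the 5 strongest genes with several summits, and those at window edges. Permutation tests had 100000 resamples. Benjamini-Hochberg adjustment covered 11 tests. Copy classes, stretches, spacing, flanking bases, repeat shares and edge distances were chosen after seeing the data. Python 3.11.15, numpy 2.4.6, pandas 2.3.3 and scipy 1.17.1 were used, and tests were checked on simulated data.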

Additional observations from a re-analysis of the deposited data

How the results depend on the processing

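Alternatives gave 112 values, of which 94 kept their direction and their side of the threshold, or for the exonic share stayed within its interval. The density ratio of 3' UTRs over coding exons was 13.96 to 27.96, and the odds ratio of the motif over flanks 8.63 to 27.09, and both passed in every alternative run. With peaks of 1 replicate alone, the exonic share was 5.89% to 6.17%, the density ratio 13.96 to 21.04, the difference in log2 signal between 3' UTRs and coding exons 0.46 to 0.47, and that of exons from introns and intergenic sequence -0.20 in each. Odds ratios with 1 replicate alone were 0.944 to 1.19 for being found in that replicate (3' UTR against coding exon), 0.823 to 0.842 (exons against others), 9.16 to 15.05 for the motif over flanks, 0.962 to 1.12 for the motif in 3' UTRs against coding exons, 1.67 to 1.82 for exons against others, 0.908 to 1.39 for arms, 0.476 to 0.598 for non-coding RNA and 1.41 to 1.88 for a 5' end downstream.

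With peaks above the median signal the exonic share was 4.93%, the difference in log2 signal of exons from others -0.043 (permutation adjusted p = 0.770), the odds ratio for both replicates, exons against others, 1.45, and that of the motif in 3' UTRs against coding exons 7.30 (exact adjusted p = 0.0274). With windows of 500 and 100 bp the share was 7.22%, non-coding RNA had an odds ratio of 0.411 (exact adjusted p = 0.0297) and a 5' end downstream 0.935. With 2000 and 200 bp the share was 5.10% and the odds ratio for both replicates, 3' UTR against coding exon, 0.993. With an overlap of 50% it was 0.874. The cause of these changes was not tested. Added after the data were seen were AATCAAT alone (2.50), introns alone for the motif (1.04), intergenic sequence alone for signal (-0.015), 3 or fewer copies (0.073) and 4 or more copies, exons against others (-0.32, permutation adjusted p = 0.0575).

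No odds ratio could be given for both replicates, 3' UTR against coding exon, above the median signal or with any relaxed peak, since every 3' UTR summit was found, and none for a 5' end downstream with the widest window, which removes it. Samples could not be paired between groups because there was 1 group. The test of the motif over flanks pooled its windows and did not pair summits with their own flanks. Depth is unknown, 5' UTRs had 13 summits, and 64 coding exon summits limit what these comparisons can show.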
